A study of Homo sapiens with 4 samples.

Results

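ABCA8, a member of the ABCA subfamily of lipid transporters, was examined together with the other 4 ABCA genes of its cluster at 17q24 (ABCA9, ABCA6, ABCA10 and ABCA5) and with 3 ABCA genes encoded elsewhere (ABCA2, ABCA3 and ABCA7). Every probe set annotated to 1 of these genes was taken by itself. The 8 genes had 14 probe sets of the 54675 on the array, which covered 7 of them. ABCA10 was not analysed here because no probe set carried its symbol as the only one, and probe sets with several symbols were not used. ABCA8 was chosen by its log2 difference, since its signal was higher after PTPN1 knockdown in these same arrays, so its values are given as a description without a test.

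RNA came from KM-H2, a cell line established from Hodgkin lymphoma. In the knockdown group PTPN1, the gene of a tyrosine phosphatase that acts on JAK kinases, was reduced with small interfering RNA (2 arrays, numbered 1 and 2). The control group was the same line with a non-silencing treatment (2 arrays, numbered 1 and 2). The submitters call the arrays of a group technical replicates, so every SD, interval and p-value here describes technical variation and says nothing of variation among cultures. The sources used here do not give the time after knockdown.

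ABCA proteins are large membrane proteins with a pair of ATP-binding domains. They use ATP to move phospholipids, sphingolipids or sterols across or out of membranes, and different members work at the cell surface, in lysosomes or in secretory lamellar bodies. The 17q24 genes form a head-to-tail array of close relatives that arose by duplication, and ABCA8 among them has been linked to cholesterol efflux and sphingomyelin production. ABCA8 is best known from liver, fat, brain and stromal tissue and not from lymphocytes.

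The sequence just before the start site is shown for 3 cluster genes because it differs between ABCA5, whose brightest probe set lay above the array median on every array, and the dim ABCA6 and ABCA9. RefSeq (GRCh38.p14) gave start-site windows for 7 of the 8 genes, and ABCA8 is not among them. The 250 bases before the start are written 5′ to 3′ on the minus strand, with each CG pair in capitals, for ABCA5 (chr17:69327134-69327383), ABCA6 (chr17:69141896-69142145) and ABCA9 (chr17:69060928-69061177). The windows of ABCA5 and ABCA6 adjoin the end of the gene. The ABCA9 window belongs to a start inside the listed span of the gene (68974488 to 69078977), and no window at its outer end was given.
ABCA5: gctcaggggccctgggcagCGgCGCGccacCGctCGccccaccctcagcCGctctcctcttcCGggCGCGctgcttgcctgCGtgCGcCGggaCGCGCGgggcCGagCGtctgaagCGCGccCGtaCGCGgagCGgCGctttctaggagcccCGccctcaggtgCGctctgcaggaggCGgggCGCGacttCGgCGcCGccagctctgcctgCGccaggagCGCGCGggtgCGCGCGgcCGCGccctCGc
ABCA6: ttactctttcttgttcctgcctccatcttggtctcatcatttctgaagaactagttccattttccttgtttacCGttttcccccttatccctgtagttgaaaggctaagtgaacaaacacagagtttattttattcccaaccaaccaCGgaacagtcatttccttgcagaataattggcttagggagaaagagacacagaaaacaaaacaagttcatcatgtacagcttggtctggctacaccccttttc
ABCA9: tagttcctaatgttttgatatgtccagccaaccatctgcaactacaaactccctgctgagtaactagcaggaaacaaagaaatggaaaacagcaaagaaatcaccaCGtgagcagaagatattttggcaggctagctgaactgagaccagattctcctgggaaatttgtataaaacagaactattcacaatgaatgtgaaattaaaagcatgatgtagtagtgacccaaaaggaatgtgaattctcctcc

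The ABCA5 window held 42 CG pairs, more than the upper quartile of 23 over all 35116 windows in the table. The window of ABCA6 and that of the inner ABCA9 start held 2 and 1, below the lower quartile of 3. The windows at the alternative starts of ABCA10 held 2 and 1. Outside the cluster, the windows held 38 CG pairs for ABCA3, 25 for ABCA7, and 54 and 12 for the alternative starts of ABCA2. TTCNNNGAA, the core motif of STAT factors, which reads the same on both strands, was searched in the whole windows of 300 bases. It matched 0 of the 9 member windows and 7.66% of all windows, and its absence says only that these letters are not in these windows.

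Of the 3 ABCA8 probe sets, 204719_at carried the large difference after PTPN1 knockdown, 1565778_at was slightly higher at dim values and 1565780_at overlapped. The other members differed by -0.26 to 0.25 on the log2 scale. Probe set 204719_at, annotated from a RefSeq mRNA of ABCA8, had log2 values of 6.11 and 7.56 in the knockdown arrays, against 4.38 and 4.55 in the non-silencing arrays. Both knockdown arrays lay above both non-silencing arrays, and knockdown array 2 was far above knockdown array 1. The means were 6.84 ± 1.03 in knockdown and 4.47 ± 0.12 in non-silencing (SD, n = 2 each), a log2 difference of 2.37 (SE 0.46) or 5.17-fold. The non-silencing arrays lay below 5.11, the median of all values, where the RMA summary compresses differences, so the fold is uncertain. The arrays numbered 1 differed by 1.73 and those numbered 2 by 3.01. Leaving out each array in turn gave 1.64 to 3.10. A difference of at least 1 within both array numbers was found for 89 of 54613 probe sets, or 0.163%, once control probe sets were set aside. ABCA8 was chosen for its difference, so this share describes the arrays and is no test of ABCA8.

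**Figure D1:**
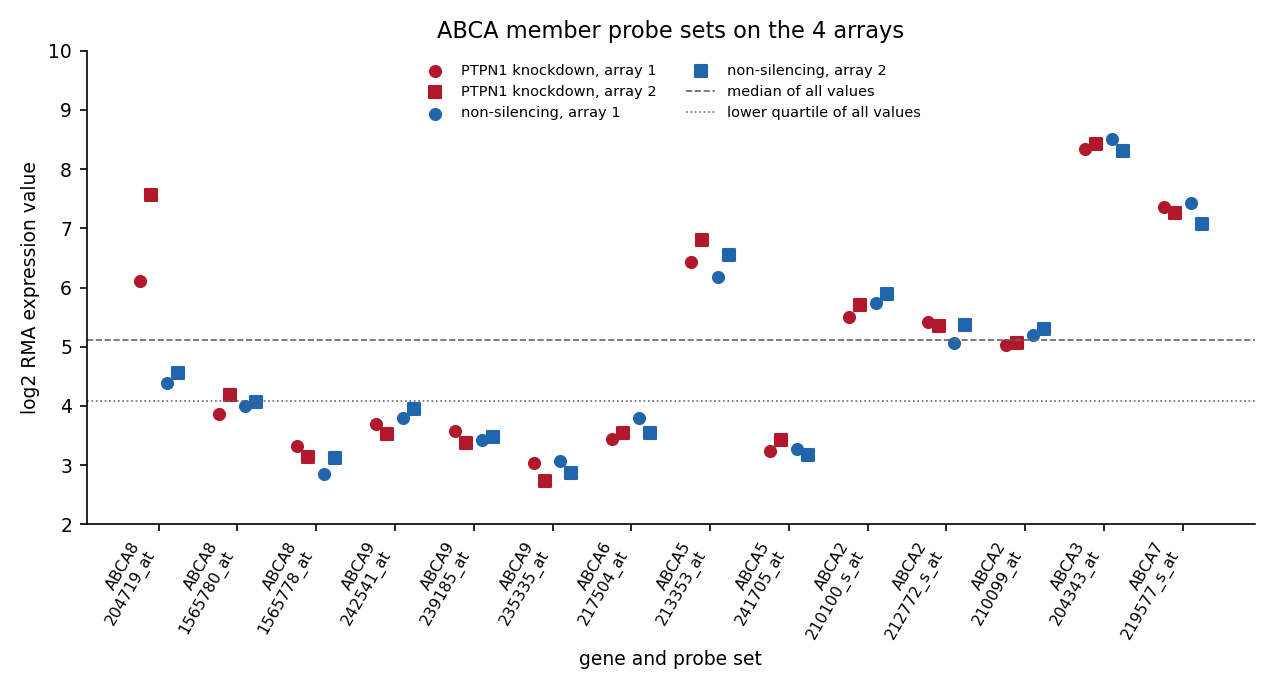
Log2 RMA values (vertical axis) of the 14 member probe sets (horizontal axis) on the PTPN1 knockdown arrays (red) and the non-silencing arrays (blue), circles for arrays numbered 1 and squares for those numbered 2, with dashed and dotted lines at the median (5.11) and lower quartile (4.09) of all values. ABCA8 204719_at shows the widest gap between the groups among the 14, with 6.11 and 7.56 in knockdown against 4.38 and 4.55 in non-silencing.

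The remaining ABCA8 probe sets, annotated from single cDNA records, stayed dim in both groups. Probe set 1565780_at read 3.87 and 4.18 in the knockdown arrays, against 3.99 and 4.07 in the non-silencing arrays, so the groups overlapped and the difference was -0.01. Probe set 1565778_at read 3.33 and 3.14 in the knockdown arrays, against 2.85 and 3.13 in the non-silencing arrays. Its groups were barely apart, by 0.48 for array number 1 and 0.01 for array number 2. It lay below the lower quartile of all values, 4.09, on every array. The mean of the 3 ABCA8 probe sets differed by 0.87. Whether the dim probe sets fail to detect the transcript that 204719_at detects was not tested.

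ABCA5 was the closest of the other cluster genes to moving the same way. ABCA5, which encodes a transporter of late endosomes and lysosomes, read 6.44 and 6.80 in the knockdown arrays, against 6.18 and 6.55 in the non-silencing arrays, with probe set 213353_at. Array number 1 gave a difference of 0.26 and array number 2 a difference of 0.25, but knockdown array 1 lay below non-silencing array 2, so the groups overlapped. The mean difference of 0.25 (SE 0.20) had a 95% interval of -0.25 to 0.76 and a limma adjusted p of 0.99996. The fit had no term for array number, so its SE and interval also hold the rise from array 1 to array 2. That rise was 0.36 in knockdown and 0.37 in non-silencing. Leaving out each array in turn gave group differences of 0.069 to 0.44. Its second probe set, 241705_at, read 3.23 and 3.43 in knockdown and 3.27 and 3.17 in non-silencing, dim on every array, and differed by 0.11.

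ABCA9 and ABCA6, the genes next to ABCA8, whose own transport roles are little known, differed by -0.26 to 0.03. Every array lay below the lower quartile for all 3 ABCA9 probe sets and the ABCA6 probe set. ABCA9 242541_at read 3.70 and 3.53 in the knockdown arrays, against 3.79 and 3.96 in the non-silencing arrays, with both knockdown arrays below both controls and a difference of -0.26. ABCA9 239185_at read 3.58 and 3.37 in knockdown and 3.42 and 3.47 in non-silencing, and 235335_at read 3.03 and 2.73 in knockdown and 3.07 and 2.86 in non-silencing, so that both overlapped. ABCA6 217504_at read 3.45 and 3.54 in knockdown, against 3.80 and 3.54 in non-silencing, a difference of -0.18. The arrays numbered 1 gave -0.36 and those numbered 2 gave -0.0039, so both knockdown arrays lay below both controls by a very small margin. At such low values RMA leaves little room to see a lower level.

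The genes outside the cluster had signal near or above the array median and differed little between the groups. ABCA3, which loads surfactant lipids into lamellar bodies of lung cells, read 8.34 and 8.42 in the knockdown arrays, against 8.51 and 8.30 in the non-silencing arrays, a difference of -0.02. ABCA7, a phospholipid transporter with a part in phagocytosis, read 7.35 and 7.26 in knockdown, against 7.43 and 7.08 in non-silencing, a difference of 0.05. In both genes the groups overlapped and the difference had opposite signs in the array numbers.

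ABCA2, an endosomal and lysosomal transporter abundant in oligodendrocytes, had 3 probe sets that disagreed in sign. Probe set 210100_s_at read 5.51 and 5.71 in knockdown, against 5.74 and 5.90 in non-silencing, and 210099_at read 5.04 and 5.06 in knockdown, against 5.21 and 5.30 in non-silencing. Both had lower values in the knockdown arrays without overlap, by -0.21 and -0.20, and were lower within both array numbers. Probe set 212772_s_at read 5.41 and 5.35 in knockdown, against 5.06 and 5.36 in non-silencing, and differed by 0.17 with the groups overlapping.

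Over the 11 probe sets of the members other than ABCA8, the median difference was -0.02, beside -0.0050 over all probe sets, and the values ran from -0.26 to 0.25. Their 95% intervals, from the fit without a term for array number, reached no higher than 0.76, the bound of ABCA5 213353_at. In limma 0 of the 11 passed an adjusted p of 0.05, beside 0% of the 54613 probe sets tested, of which 1364 or 2.5% had an unadjusted p under 0.05. The lowest adjusted p among the 11 was 0.99996. With 2 arrays in a group an exact permutation test cannot give less than 0.333, so none was run.

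Among all 14 member probe sets 2 had both knockdown arrays above both non-silencing arrays, and both were ABCA8's, where 13.4% of all probe sets did. Under quantile normalization and under centring of the arrays the count was 3, with ABCA2 212772_s_at added. With any array left out the count was 4 or 5, since fewer arrays then have to be apart. The opposite order, both knockdown arrays below both controls, was found for 4 of the 14 (ABCA9 242541_at, ABCA6 217504_at and ABCA2 210100_s_at and 210099_at), where 15.3% of all probe sets had it. Within both array numbers 3 of the 14 were higher in knockdown (27.7% of all probe sets) and 5 were lower (28.5%). The 3 were ABCA8 204719_at, ABCA8 1565778_at and ABCA5 213353_at, and the other 6 changed sign between the numbers.

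**Figure D2:**
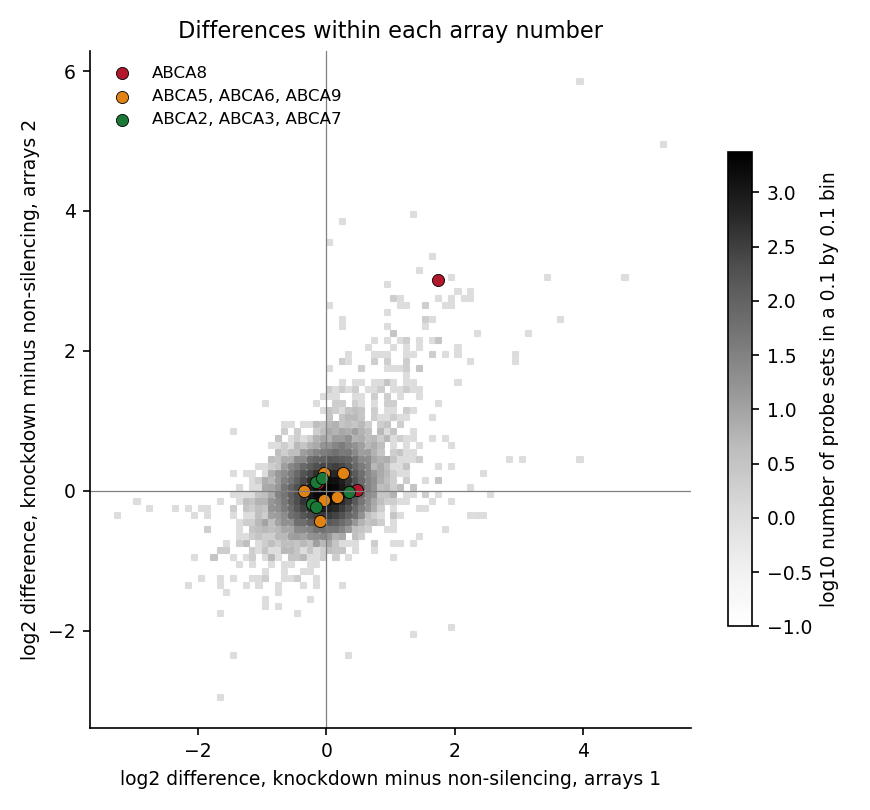
Log2 difference, knockdown minus non-silencing, between the arrays numbered 1 (horizontal axis) and between those numbered 2 (vertical axis), with grey squares for the number of all probe sets per bin and coloured points for the member probe sets. ABCA8 204719_at lies at 1.73 and 3.01, while the 11 probe sets of the other members lie within the dense centre.

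Array number grouped the arrays more closely than treatment did. Over probe sets, which are not independent, Pearson's r was 0.993 for the pair numbered 1 and 0.994 for the pair numbered 2, whereas the knockdown pair had 0.988 and the non-silencing pair 0.990. The 3′ to 5′ log2 difference of the beta-actin control was 1.33 in knockdown array 1 and 1.31 in non-silencing array 1, and 0.97 in both arrays numbered 2. PTPN1 itself (202716_at) read 7.002 and 7.363 in the knockdown arrays, against 8.159 and 8.397 in the non-silencing arrays, a difference of -1.10. Its other 3 probe sets, 217686_at, 239526_x_at and 217689_at, lay below the median on every array and differed by 0.0085, -0.03 and -0.07.

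ABCA8 204719_at read higher in knockdown array 2 than in knockdown array 1, with a far smaller rise between the controls. Array 2 exceeded array 1 by 1.45 in the knockdown group and by 0.17 in the non-silencing group. Both control values, 4.38 and 4.55, lay below the median of all values, where RMA compresses differences, so a rise there may be understated. Whether the rise is particular to knockdown was not tested. Knockdown arrays at least that far apart were found for 0.390% of probe sets. ABCA5 213353_at was higher in array 2 by 0.36 in knockdown and 0.37 in non-silencing. No member probe set was at least 0.5 higher in array 2 in both groups, which 3.15% of all probe sets were.

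The remaining ABCA genes, taken as a listed set of 4 (ABCA1, ABCA4, ABCA12 and ABCA13), had 10 probe sets, of which several shifted with the array number. Of the 10, 5 were at least 0.5 higher in array 2 in both groups, and 3 were at least 1 higher, where 0.452% of all probe sets were. In limma without a term for array number 0 of the 10 passed between the groups (lowest adjusted p = 0.99996), beside 0% of all probe sets. ABCA12, a lipid transporter of the skin barrier, read 3.35 and 5.95 in the knockdown arrays, against 4.03 and 6.29 in the non-silencing arrays. Its values split by array number, with array 2 higher by 2.60 in knockdown and 2.27 in non-silencing, and the group difference of -0.51 was small beside it. ABCA1, which exports cholesterol and phospholipid to apolipoprotein A-I, read 6.11 and 7.39 in knockdown, against 5.97 and 6.85 in non-silencing, with 203504_s_at. The groups overlapped, and the difference was 0.14 and 0.54 within the array numbers. ABCA13 1553295_at had both knockdown arrays below both controls, by -0.32, and ABCA4, the retinoid-lipid flippase of photoreceptors, likewise by -0.21 with 210082_at. Both lay below the median on every array, and 15.3% of all probe sets had this order. The groups overlapped for the other ABCA13 probe sets, 1553605_a_at and 1553604_at. These were higher in array 2 by 1.42 and 1.03 in knockdown and by 1.14 and 1.12 in non-silencing. Beta-actin 3′ to 5′ values moved with the array number too, and their part in these shifts was not tested.

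**Figure D3:**
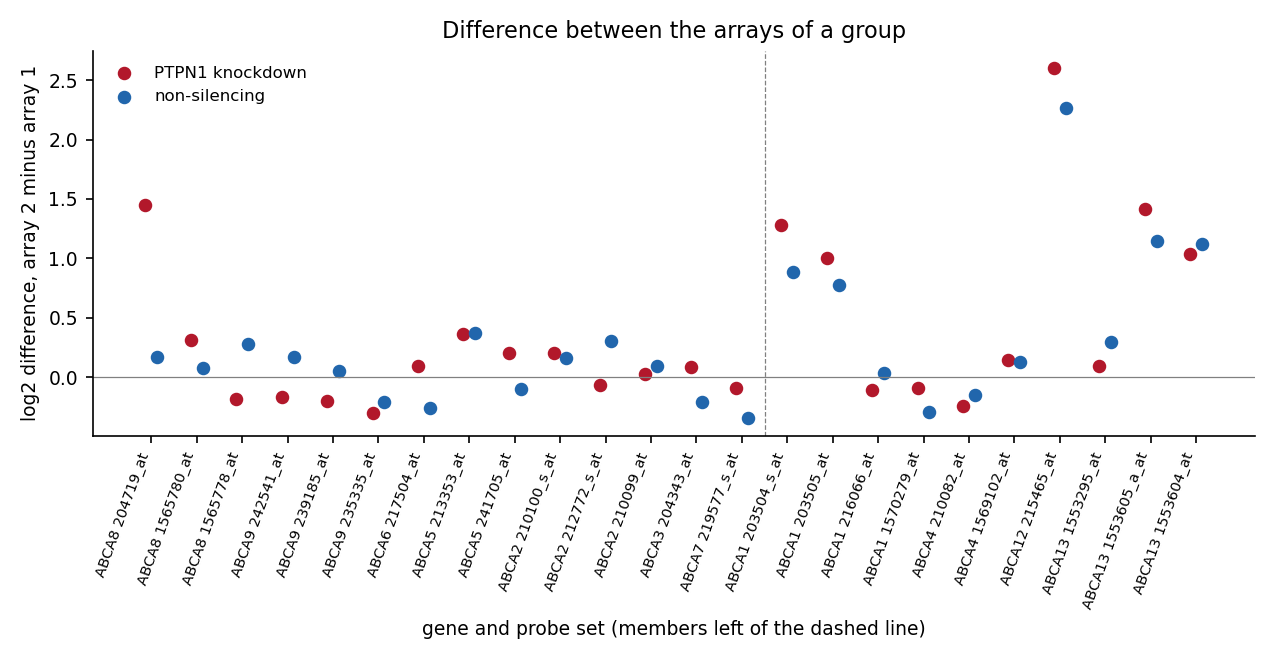
Log2 difference, array 2 minus array 1 (vertical axis), within the knockdown group (red) and the non-silencing group (blue) for 24 ABCA probe sets (horizontal axis). ABCA8 204719_at lies at 1.45 in knockdown and 0.17 in non-silencing, and ABCA12 at 2.60 in knockdown and 2.27 in non-silencing.

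The neighbours of the cluster on chromosome 17 lay on both sides of 0. In RefSeq order the 10 protein-coding genes on each side gave 18 measured neighbours, with a median difference of 0.01 beside -0.01 over all 19775 genes, each gene by its brightest probe set. Of these, 3 (BPTF, MTNAP1 and KCNJ2) had both knockdown arrays above both controls and 2 (MAP2K6 and FAM20A) had them below, where 12.4% and 15% of all genes did. MAP2K6, which encodes a kinase that activates p38 and lies beside ABCA5, went the opposite way to ABCA8. It read 6.52 and 6.54 in the knockdown arrays, against 7.20 and 7.62 in the non-silencing arrays, a difference of -0.88 (SE 0.18) that was -0.68 and -1.08 within the array numbers. It did not pass in limma without a term for array number (adjusted p = 0.99996), where 0 of all 19775 genes passed. KCNJ2, an inward-rectifier potassium channel gene further on, read 8.80 and 8.48 in knockdown, against 8.18 and 8.27 in non-silencing, a difference of 0.42. On the other side of ABCA8, FAM20A differed by -0.17 with values near the lower quartile, and C17orf58 by 0.16.

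**Figure D4:**
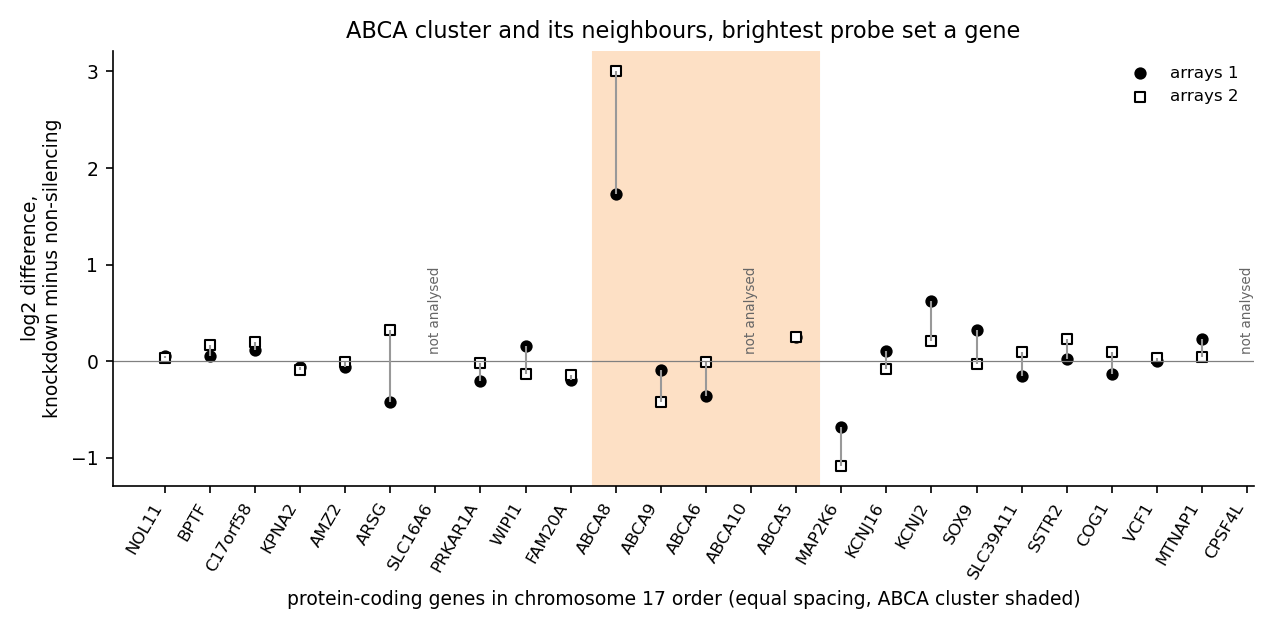
Log2 difference, knockdown minus non-silencing (vertical axis), for the brightest probe set of each protein-coding gene in chromosome 17 order (horizontal axis, equal spacing), with circles for arrays numbered 1, squares for those numbered 2 and the ABCA cluster shaded. ABCA8 lies highest at 1.73 and 3.01, and MAP2K6 lies lowest at -0.68 and -1.08.

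By the likeness of their 4 values, each gene centred on its own mean, the genes nearest to ABCA8 lay outside the ABCA family. SYTL2, a synaptotagmin-like Rab effector, was nearest, with a Euclidean distance of 0.28 on the log2 scale over the 4 arrays. It read 5.51 and 6.80 in the knockdown arrays, against 3.96 and 4.11 in the non-silencing arrays. HSD17B12, an enzyme of very-long-chain fatty acid elongation, followed at 0.43, with 5.90 and 7.52 in knockdown against 4.68 and 4.84 in non-silencing. RIT2, a Ras-like GTPase of neurons, VGLL3, a cofactor of TEAD factors, and SPP1, which encodes osteopontin, had distances of 0.49, 0.50 and 0.63. In all 5 knockdown array 2 was the highest array, as in ABCA8, which follows from their choice by likeness. The other ABCA members lay at 2.26 (ABCA5) to 2.87 (ABCA9), around the 2.62 that was the median of all genes. With 4 arrays such likeness is a description and has no test.

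**Figure D5:**
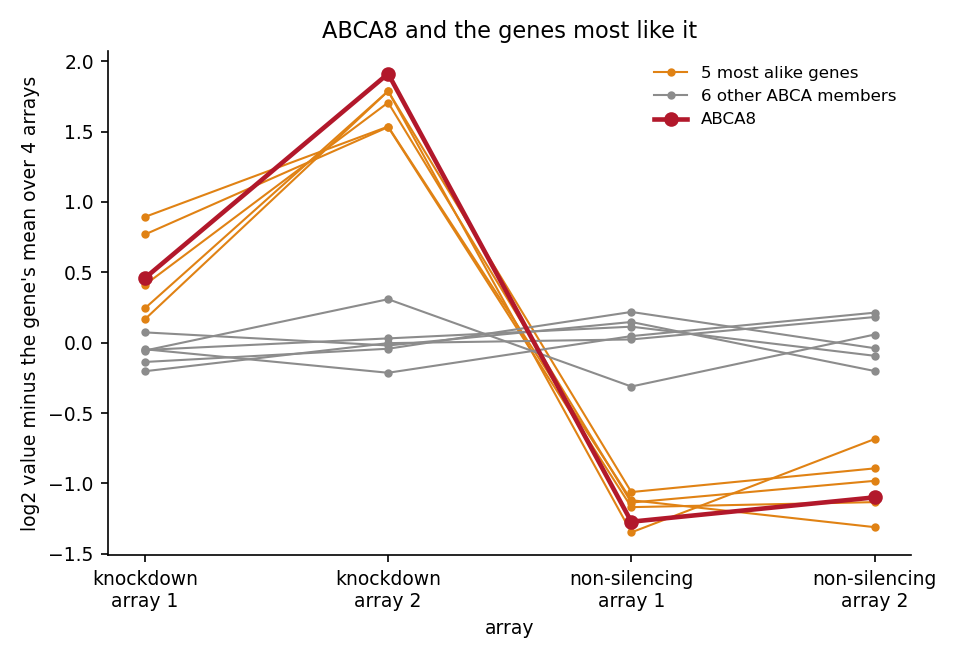
Log2 value minus the gene's own mean over the 4 arrays (vertical axis) on each array (horizontal axis) for ABCA8 (red), the 5 genes nearest to it (orange) and the brightest probe set of the 6 other measured ABCA members (grey). ABCA8 and the 5 genes, which were chosen by likeness to it, peak in knockdown array 2, and the other ABCA members stay near 0.

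Genes that act beside ABCA transporters were read from lists, each gene by its brightest probe set. Of 21 other ABC exporters 18 were measured, with a median difference of 0.03. In this list 3 (ABCB1, ABCC10 and ABCB9) had both knockdown arrays above both controls, and 2 (ABCB10 and ABCG1) had them below. These counts were near the 12.4% and 15% of all genes. In limma without a term for array number 0 passed, as for all 19775 genes. ABCC10, ABCB9 and ABCG1 differed by only 0.08, 0.03 and -0.10. ABCB1, the multidrug exporter P-glycoprotein, was highest and read 6.99 and 6.79 in knockdown, against 6.45 and 6.15 in non-silencing, a difference of 0.59 with the groups apart. ABCC5, an exporter of cyclic nucleotides, differed by 0.13. ABCD2, a peroxisomal importer of very-long-chain fatty acids, was lowest at -0.41 with overlapping groups, followed by ABCB10, a mitochondrial transporter, at -0.18.

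Genes of sterol efflux and its nuclear receptor LXR had a median difference of -0.09 over 11 of 12 genes. In this list 1 (SMPDL3A) had both knockdown arrays above both controls and 2 (RXRA and ABCG1) had them below, beside 12.4% and 15% of all genes. In limma 0 passed, as for all 19775 genes. SMPDL3A, a phosphodiesterase gene induced by LXR, read 5.85 and 5.88 in knockdown, against 5.39 and 5.57 in non-silencing, a difference of 0.39. PLTP, the phospholipid transfer protein of plasma, differed by 0.11. SREBF1, the regulator of fatty acid synthesis, and MYLIP, a ligase that degrades the LDL receptor, differed by -0.42 and -0.41, both with overlapping groups.

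Sphingolipid genes, set beside ABCA8 because of its link to sphingomyelin, were measured for all 9 listed and had a median difference of 0.02. Both knockdown arrays lay above both controls for 2 (UGCG and CERS6) and below them for 3 (SGMS1, SMPD1 and SGMS2), beside 12.4% and 15% of all genes. In limma 0 passed, as for all 19775 genes. SGMS1, a sphingomyelin synthase, read 8.45 and 8.69 in knockdown, against 9.05 and 8.98 in non-silencing, a difference of -0.45. UGCG, which makes glucosylceramide from the same ceramide substrate, read 9.34 and 9.36 in knockdown, against 8.94 and 9.13 in non-silencing, a difference of 0.31. CERS6, a ceramide synthase, differed by 0.24 and SMPD1, the acid sphingomyelinase, by -0.15, both with the groups apart.

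Markers were read to check the cells. All 6 Hodgkin markers (TNFRSF8, FUT4, IRF4, CCL17, TRAF1 and CD83) lay above the array median on every array. All 6 differences were above 0, as were 48.2% of all genes, with a median of 0.30. In limma 0 passed, as for all 19775 genes. Of the 6, only CCL17, a chemokine gene, had both knockdown arrays above both controls, as had 12.4% of all genes. It read 7.25 and 6.70 in knockdown, against 5.86 and 6.16 in non-silencing, a difference of 0.97. Fibroblasts are a known site of ABCA8 expression, and of 8 fibroblast markers 4 were above 0, with a median difference of 0.05. DCN, the decorin gene, read 5.06 and 5.18 in knockdown, against 5.04 and 4.93 in non-silencing. It was the only marker of this list with both knockdown arrays above both controls, beside 12.4% of all genes. COL1A2, with a difference of -0.33, was the only marker of the list with both below, beside 15% of all genes. COL1A1 was lowest at -0.48 and PDGFRA highest at 0.58, both with overlapping groups. The summed linear signal of the list was 2190 to 2370 in the knockdown arrays, against 1503 to 2592 in the non-silencing arrays, so the groups overlapped. It came mostly from PDGFRA and COL1A1, while COL3A1 lay below the lower quartile on every array. Median differences were 0.04 for 4 oligodendrocyte markers, 0.07 for 4 of monocytes and macrophages, -0.06 for 4 of T cells and -0.10 for 3 of B cells. Such differences do not describe which cells are present. By level, 1 of 4 oligodendrocyte, 2 of 4 monocyte and macrophage, 2 of 4 T cell and 1 of 3 B cell markers lay above the median on every array. All 4 arrays came from the KM-H2 line, and their titles name no other cells. In bulk RNA, a change in the share of cells and a change in RNA per cell cannot be told apart.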

How the data were processed

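KM-H2 RNA was measured on 4 arrays, 2 from PTPN1 knockdown and 2 from non-silencing cells, after column extraction and 2-cycle amplification, per the labels' protocols. The authors deposited log2 values from RMA, as the submitters' processing notes name it, a method that corrects background, normalizes by quantiles and compresses differences among dim probe sets. The sources used here give no software, version or genome build.

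Groups came from titles. Of 54675 probe sets, 62 controls were set aside. Symbols came from the platform's annotation (41097 probe sets with 1 symbol, 1801 with several, 11777 with none) through RefSeq GRCh38.p14, and probe sets with 1 symbol were used. All 54613 were fitted in limma 3.58.1 under R 4.3.3 (lmFit, eBayes, no covariate, two-sided), with Benjamini-Hochberg adjustment over all and 0.05 as threshold. The method was tried on simulated data with independent noise and no shift between array numbers. These arrays do show such a shift, so the trial does not cover it. The number of arrays limits the precision. Members and lists were chosen with earlier results of these data known. Named were all member probe sets, the 5 genes nearest to ABCA8, and the 2 highest and 2 lowest of each list, with others chosen after their values were seen.

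Replicate numbers recur in both groups. Over probe sets, deviations of same-numbered arrays correlated at 0.59. No label ties the numbers to a batch and 2 pairs cannot settle a pairing, so the main fit used no block. Its SEs, intervals and p-values therefore also hold the shift between array numbers. Alternatives were quantile normalization, centring, a filter on dim probe sets, 1 value a gene, other variance models, a replicate block and leaving out each array.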

Additional observations from a re-analysis of the deposited data

How the results depend on the processing

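With the replicate number as a block, limma called 164 of 54613 probe sets in place of 0, and with 1 array left out 0 to 1 (the call was DLK1, without non-silencing array 1). The cause was not tested. A fit without 1 array takes the spread from the other group, as if the lone array varied like it. None of the 11 probe sets of members other than ABCA8 was called under the alternatives run with all 4 arrays, with a lowest adjusted p of 0.571 in limma under the block. ABCA8 204719_at differed by 2.37, by 0.87 with the mean of its probe sets, and by 1.64 to 3.10 with 1 array left out. The count of member probe sets apart and higher was 2. It was 3 under quantile normalization and under centring (ABCA2 212772_s_at added), and 3 were higher within both array numbers under the replicate block (ABCA5 213353_at added). It was 1 of 7 among probe sets at or above the median, 1 of 7 genes by the brightest probe set, 1 of 7 genes by the mean, and 4 to 5 with 1 array left out, since fewer items or arrays then enter. The median of the other members was -0.02, -0.10 with the brightest probe set a gene, and -0.12 to 0.018 with 1 array left out. Quantile normalization and centring moved no member difference by more than 0.032. Low signal limits ABCA9, ABCA6 and the dim ABCA8 and ABCA5 probe sets, for which a lower level could hardly be seen.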
